A study of Rattus norvegicus with 8 samples.

Results

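The 9 interferon-stimulated genes described here are Isg15, Usp18, Oas1a, Mx1, Ifit3, Irf7, Irf9, Stat2 and Psmb8. They were taken by name: each non-control probe that the array design names after one of them was used, which gave 10 probes for 9 of the 26269 gene names of the array. All 9 entered the test, among 16571 genes tested. The RNA came from the hypothalamus of lactating Wistar rats on postpartum day 7, from 4 control dams and 4 dams exposed to TCDD, each on 1 Agilent Whole Rat Genome array in 1 colour. TCDD is the dioxin against which other dioxins are measured, and it acts through the aryl hydrocarbon receptor. The sources used here give no dose, route or timing of exposure, no vehicle for the controls and no age of the dams. No genetic alteration is named for either group.

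Interferons are secreted proteins by which cells announce infection. Type I interferons bind a receptor whose kinases phosphorylate STAT2, which joins IRF9 in a complex that binds the interferon-stimulated response element (ISRE) in front of its target genes. The targets include antiviral enzymes, the ubiquitin-like protein ISG15, the immunoproteasome and the signalling proteins themselves. In the brain, neurons, astrocytes, microglia and endothelial cells can all carry such a programme, and a low level is present without infection.

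RefSeq promoters (build GRCr8) were matched for 7 of the 9 genes, namely Oas1a, Mx1, Ifit3, Irf7, Irf9, Stat2 and Psmb8, each as 250 bases before and 50 bases after the start site. The ISRE core was searched as GAAA, any 2 bases and GAAA again, on either strand. It was present in 4 of the 7 member promoters, against 3.92% of all 33469 promoters of the same length. The 4 promoters that hold it are shown from 100 bases before the start site through its first 20 bases, 5′ to 3′ on the strand of the gene, since this is the element through which the family is known to be switched on. Capitals mark the ISRE core on either strand.
Oas1a, chr12:41330366-41330485, plus strand: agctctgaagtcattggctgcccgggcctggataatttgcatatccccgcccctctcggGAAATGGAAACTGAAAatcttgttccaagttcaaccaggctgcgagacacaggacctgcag
Ifit3, chr1:241527226-241527345, plus strand: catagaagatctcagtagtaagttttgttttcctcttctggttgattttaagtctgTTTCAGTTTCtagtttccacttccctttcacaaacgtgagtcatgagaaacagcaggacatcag
Irf7, chr1:205800004-205800123, minus strand: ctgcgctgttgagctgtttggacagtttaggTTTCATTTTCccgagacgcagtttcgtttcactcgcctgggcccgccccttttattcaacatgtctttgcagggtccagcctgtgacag
Psmb8, chr20:4657012-4657131, minus strand: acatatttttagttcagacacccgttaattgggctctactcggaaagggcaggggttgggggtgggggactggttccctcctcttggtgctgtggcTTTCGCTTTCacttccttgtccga
Counted from the start site, the core began at -41 in Oas1a, with an overlapping copy at -35, at -44 in Ifit3, at -69 in Irf7 and at -4 in Psmb8. The STAT dimer element was searched as TTCNNNGAA, whose letters read the same on both strands, and the core of the aryl hydrocarbon receptor element as GCGTG on either strand. The STAT dimer element was present in 3 of the 7 promoters (Oas1a, Irf9 and Psmb8), against 8.87% of all promoters. The receptor core was present in 2 of the 7 (Ifit3 and Stat2), against 29.7% of all promoters. These are matches of letters in a fixed window, and binding was not measured.

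All 10 member probes were well above background on all 8 arrays, and 0 were saturated. Values below are log2 signal relative to the 75th percentile of the array, so that 0 is the signal at that percentile. Levels of different genes come from different probes and are not compared. All 9 genes had a lower mean in TCDD dams, with log2 fold changes (TCDD minus control) from -0.78 to -0.11 and a median of -0.32. Among all tested genes, 48.5% were lower and the median was 0.00414. The 9 genes were chosen with earlier results of these data known. They also varied together over the arrays (median pairwise r of 0.651), so they are not 9 separate observations. None of the 9 passed an adjusted p of 0.05 in limma with Benjamini-Hochberg adjustment over all genes, a threshold that 0.0241% of all genes passed (4 genes, 0 of them lower). At an unadjusted p under 0.05, 3 of the 9 were lower (Isg15, Usp18 and Oas1a) and 0 were higher, against 2.82% of all genes lower and 7.95% higher. The same 3 were lower by 0.5 or more on the log2 scale, against 0.634% of all genes. After normexp background correction Isg15 was at -0.60, Usp18 at -0.39 and Oas1a at -0.33, so that of these only Isg15 stayed past that size. In 0 of the 9 did the groups not overlap, against 1.72% of all genes with every TCDD dam below every control and 5.33% with every one above. The count of 3 became 6 without control replicate 3 and ranged from 2 to 6 over each array left out. The number of members lower in TCDD dams was 9 of 9 in every alternative that was run. A permutation of 4 dams against 4 has 70 assignments and cannot give a 2-sided p below 0.0286.

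Each group lay on a slide of its own, so a difference between slides and a difference between groups cannot be told apart. The 75th percentile of signal ranged from 756 to 1077 over the arrays, 61.7% to 66.7% of probes were well above background, and the correlation between arrays was 0.986 to 0.991. The spike-in slope was 0.996 to 1.01 on the control arrays and 1.01 to 1.03 on the TCDD arrays. Of 12 hypothalamic markers 11 were tested (Otp was not well above background), and their mean log2 signal was 2.23 to 2.67 in controls and 2.26 to 2.56 in TCDD dams.

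**Figure D1:**
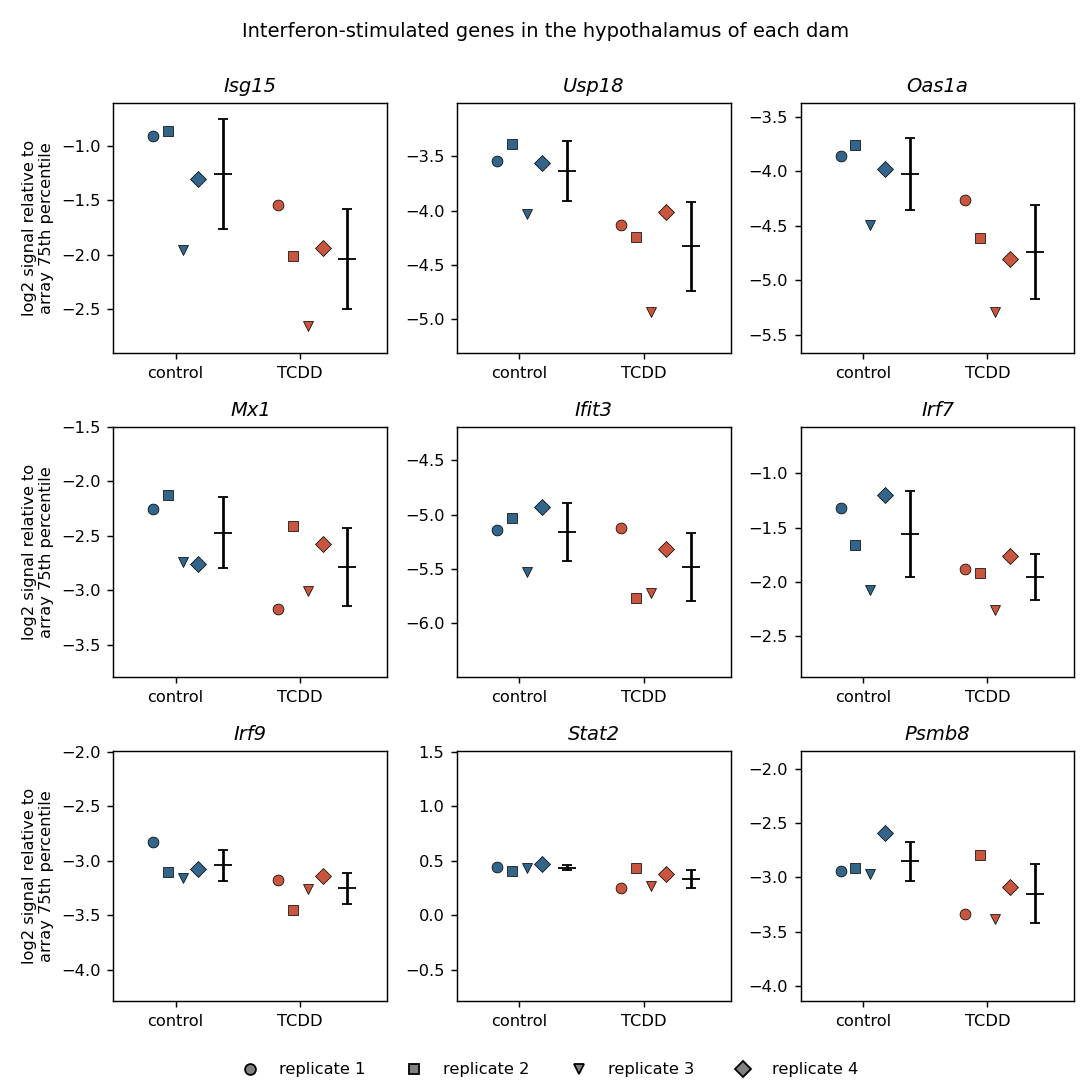
Log2 signal relative to the array's 75th percentile (vertical axis, each panel 1 gene) for the 4 control dams (blue) and the 4 TCDD dams (red), with the group mean and SD in black and a marker shape per replicate number. Each vertical axis spans the same number of log2 units; replicate 3 (triangle) is the lowest of both groups in Isg15, Usp18, Oas1a, Irf7 and Psmb8.

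The first pair of genes belongs to ISG15 conjugation. Isg15 encodes a ubiquitin-like protein that is attached to other proteins after interferon and is also secreted. Its log2 signal was -0.91, -0.86, -1.96 and -1.31 in control replicates 1 to 4, and -1.55, -2.02, -2.65 and -1.94 in TCDD replicates 1 to 4. Control replicates 1, 2 and 4 lay above every TCDD dam, and control replicate 3 lay below TCDD replicates 1 and 4. The means were -1.26 ± 0.51 in controls and -2.04 ± 0.46 in TCDD dams (SD, n = 4 each), which is 1.72-fold higher in controls. The log2 fold change was -0.78 (SE 0.29), with a limma adjusted p of 0.377 and a 2-sided exact permutation p of 0.0857. It ranged from -1.01 to -0.58 with each array left out. The probe lies at chr5:173034674-173034733 on the minus strand of rn4, the build of the array design. Exon positions are not given for any probe, since no rn4 annotation was used.

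Usp18 encodes the protease that removes ISG15 from its targets and also damps signalling at the interferon receptor. Its brighter probe, which represents the gene, read -3.55, -3.39, -4.04 and -3.57 in the controls and -4.14, -4.24, -4.93 and -4.01 in the TCDD dams. The groups overlapped only through control replicate 3 and TCDD replicate 4. The means were -3.64 ± 0.28 and -4.33 ± 0.41 (SD, n = 4 each), 1.62-fold higher in controls, with a log2 fold change of -0.69 (SE 0.22), a limma adjusted p of 0.289 and an exact permutation p of 0.0571. A dimmer second probe of Usp18 read -4.59, -4.47, -4.91 and -4.59 in the controls and -5.35, -5.22, -5.76 and -5.17 in the TCDD dams. On this probe the groups did not overlap, the log2 fold change was -0.74 (SE 0.15) and the limma p adjusted over all tested probes was 0.141. Over the 8 arrays the 2 Usp18 probes followed each other, with a Pearson r of 0.966 (exact permutation p = 0.000347), a Spearman rho of 0.946 (exact permutation p = 0.000992) and an r of 0.928 without the 2 arrays farthest from the median. The probes lie at chr4_random:1587472-1587531 and chr4_random:1588272-1588823, both on the minus strand of rn4.

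Among the antiviral effectors, Oas1a encodes an enzyme that makes short adenylate chains on meeting double-stranded RNA and so activates RNase L. Its log2 signal was -3.87, -3.76, -4.50 and -3.98 in the controls and -4.26, -4.61, -5.29 and -4.81 in the TCDD dams. The only overlap was between control replicate 3 and TCDD replicate 1. The means were -4.02 ± 0.33 and -4.74 ± 0.43 (SD, n = 4 each), 1.64-fold higher in controls, with a log2 fold change of -0.72 (SE 0.23), a limma adjusted p of 0.311 and an exact permutation p of 0.0571. The Oas1 family holds many similar copies in rats, and cross-hybridisation between copies was not tested. The probe lies at chr12:36815068-36815127 on the plus strand.

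Mx1 encodes a dynamin-like GTPase that blocks replication of RNA viruses. It read -2.25, -2.13, -2.74 and -2.76 in the controls and -3.17, -2.41, -3.01 and -2.57 in the TCDD dams. The groups overlapped widely, with TCDD replicates 2 and 4 above control replicates 3 and 4. The means were -2.47 ± 0.33 and -2.79 ± 0.36 (SD, n = 4 each). The log2 fold change of -0.32 (SE 0.21) had a limma adjusted p of 0.677 and an exact permutation p of 0.257. It was -0.19 without TCDD replicate 1 and -0.20 without control replicate 2. Its probe is at chr11:37438580-37438639 on the minus strand.

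Ifit3 encodes a tetratricopeptide-repeat protein that acts with its relatives on viral RNA. Its log2 signal was -5.14, -5.03, -5.53 and -4.93 in the controls and -5.12, -5.76, -5.72 and -5.32 in the TCDD dams. TCDD replicate 1 lay among the controls, and control replicate 3 among the TCDD dams. The means were -5.16 ± 0.26 and -5.48 ± 0.31 (SD, n = 4 each), with a log2 fold change of -0.32 (SE 0.18), a limma adjusted p of 0.596 and an exact permutation p of 0.2. Its processed signal was 18.5 to 34.6, against a lowest well-above-background signal of 8.62 to 14.1 on the arrays. The Ifit3 probe maps to chr1:238575730-238575789 on the plus strand.

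Among the signalling members, Irf7 encodes the transcription factor that amplifies type I interferon production. It read -1.32, -1.66, -2.08 and -1.20 in the controls and -1.88, -1.91, -2.25 and -1.76 in the TCDD dams. Control replicates 1, 2 and 4 lay above every TCDD dam, whereas control replicate 3 lay below TCDD replicates 1, 2 and 4. The means were -1.56 ± 0.39 and -1.95 ± 0.21 (SD, n = 4 each), with a log2 fold change of -0.39 (SE 0.20), a limma adjusted p of 0.533 and an exact permutation p of 0.171. Without control replicate 3 the log2 fold change was -0.56, at an adjusted p of 0.239. Over all alternatives the adjusted p of Irf7 ranged from 0.192 to 0.831. Irf7 was read at chr1:201456889-201456948 on the minus strand.

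Irf9 encodes the DNA-binding subunit of the complex that binds the ISRE. Its log2 signal was -2.83, -3.10, -3.15 and -3.08 in the controls and -3.17, -3.45, -3.26 and -3.13 in the TCDD dams. TCDD replicate 4 lay just above control replicate 3, and this was the only overlap. The means were -3.04 ± 0.14 and -3.25 ± 0.14 (SD, n = 4 each), with a log2 fold change of -0.21 (SE 0.095), a limma adjusted p of 0.477 and an exact permutation p of 0.0571. The probe lies at chr15:33744491-33744550 on the plus strand.

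Stat2, the partner of Irf9 in that complex, read 0.44, 0.41, 0.43 and 0.47 in the controls and 0.25, 0.43, 0.27 and 0.38 in the TCDD dams. The controls lay close together, and TCDD replicate 2 alone reached into their range. The means were 0.44 ± 0.025 and 0.33 ± 0.087 (SD, n = 4 each), with a log2 fold change of -0.11 (SE 0.056), a limma adjusted p of 0.561 and an exact permutation p of 0.0571. Its probe is at chr7:1580592-1580651 on the plus strand.

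Psmb8 encodes a catalytic subunit of the immunoproteasome, the form of the proteasome that prepares peptides for class I presentation. It read -2.94, -2.92, -2.96 and -2.59 in the controls and -3.34, -2.79, -3.38 and -3.09 in the TCDD dams. Control replicate 4 stood above the other controls, and TCDD replicate 2 lay above control replicates 1, 2 and 3. The means were -2.85 ± 0.18 and -3.15 ± 0.27 (SD, n = 4 each), with a log2 fold change of -0.30 (SE 0.14), a limma adjusted p of 0.519 and an exact permutation p of 0.143. The Psmb8 probe maps to chr20:4787980-4788039 on the minus strand. In whole tissue, fewer cells that carry these transcripts and less RNA per cell cannot be told apart, for any of the 9 genes.

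**Figure D2:**
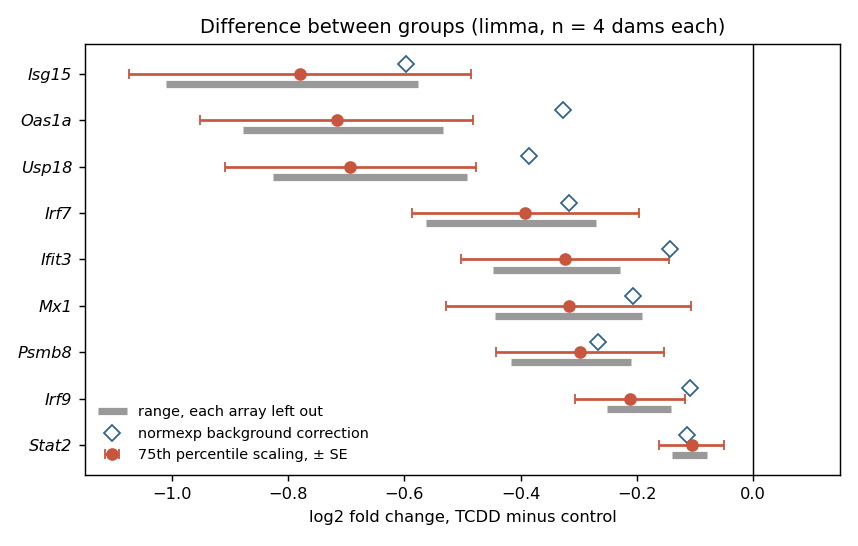
Log2 fold change, TCDD minus control (horizontal axis), of each of the 9 genes: red points with 1 SE from limma (n = 4 dams a group), grey bars spanning the values with each array left out in turn, and open diamonds after normexp background correction. All points lie below 0, and Isg15 spans -1.01 to -0.58 with an array left out. All genes but Stat2 lie nearer 0 after normexp, among them Usp18 (-0.39), Oas1a (-0.33), Mx1 (-0.21), Ifit3 (-0.14) and Irf9 (-0.11).

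Normexp background correction with an offset of 50 moved most of these differences closer to 0. It started from the mean signal and local background of each spot, not from the processed signal, which also has spatial trends removed. The offset is added to every signal and by itself draws log2 differences of dim probes toward 0. The parts of the offset and of the different input in these changes were not tested. The log2 fold change was then -0.39 for Usp18, -0.33 for Oas1a, -0.21 for Mx1, -0.14 for Ifit3 and -0.11 for Irf9. Isg15 gave -0.60, Irf7 -0.32 and Psmb8 -0.27 under the same correction. The processed signal was 35.3 to 92.6 for Usp18, 27.5 to 72.0 for Oas1a and 171 to 536 for Isg15. Psmb8 and Irf9 had similar signals, 79.9 to 174.7 and 89.5 to 124.6, and Irf9 moved more.

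The dams of 1 group differed among themselves in these genes. The within-group SD had a median of 0.316 over the 9 genes and of 0.121 over all tested genes. The SD of Isg15 was at percentile 96.1 of all tested genes, and those of Oas1a, Usp18, Mx1, Irf7 and Ifit3 were at 93.5, 92.1, 91.7, 89.9 and 88.1. Psmb8 was at 81.2, and the transcription factor subunits Irf9 and Stat2 were lower, at 59.6 and 13.1. Among the 500 genes nearest in mean signal, Isg15, Irf7 and Mx1 were at percentiles 96.8, 92.6 and 90.6, Usp18 and Oas1a at 87.8 and 86.6, and Psmb8 at 75.5. On that scale Ifit3 was at 56.5, Irf9 at 46.3 and Stat2 at 18. Control replicate 3 was the lowest control for 7 of the 9 genes, with a median deviation from the control mean of -0.37. TCDD replicate 3 was the lowest TCDD dam for 5 of the 9, with a median deviation of -0.24, and these 5 values were also the lowest of all 8 dams. The mean log2 signal over the 9 genes was -2.49, -2.49, -2.95 and -2.55 in control replicates 1 to 4 and -2.93, -2.97, -3.36 and -2.92 in TCDD replicates 1 to 4. Control replicate 3 thus lay below TCDD replicates 1 and 4 and above TCDD replicates 2 and 3. Both replicate 3 arrays held the third position of their slide, and whether that position bears on the values was not tested.

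**Figure D3:**
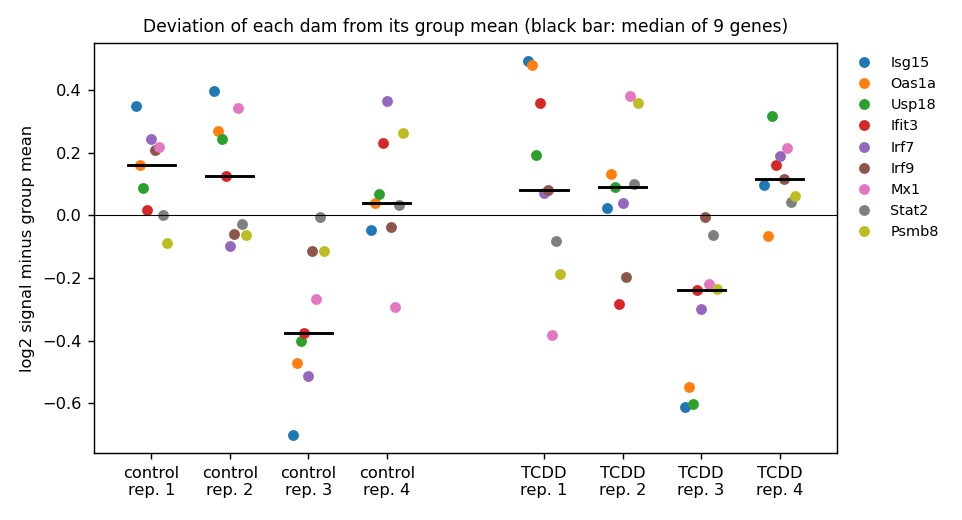
Deviation of each dam's log2 signal from the mean of its group (vertical axis) for the 9 genes (coloured points), with the median over the 9 genes as a black bar, for the 4 control and 4 TCDD dams. The medians of control replicate 3 (-0.37) and TCDD replicate 3 (-0.24) lie below 0, and those of the other 6 dams lie above it.

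Pearson r was computed over the 8 arrays for all 36 pairs of the 9 genes. It was above 0 in 36 of 36 pairs, with a median of 0.651 and a lowest value of 0.12 (Irf9 with Psmb8), and 9 pairs reached 0.8. Of all pairs of tested genes, 51.3% were above 0, 6.43% were at or above the members' median, and 1.84% reached 0.8. The pairs are not independent, since they share genes and arrays. In exact permutation tests adjusted over the 36 pairs, 4 pairs passed 0.05. The permutations ran over all 8 arrays whatever their group, so these p values also take in the difference between groups. No p was computed with group means removed.

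The highest was Isg15 with Oas1a, at an r of 0.976 (exact permutation p = 0.000174, adjusted p = 0.00625) and a rho of 0.929 (exact p = 0.00223, adjusted p = 0.0402), with an r of 0.939 without the 2 arrays farthest from the median. Isg15 with its deconjugating enzyme Usp18 gave an r of 0.940 (exact p = 0.00122, adjusted p = 0.0146) and a rho of 0.929 (exact p = 0.00223, adjusted p = 0.0402), with 0.850 without the 2 farthest arrays. Stat2 with Psmb8 gave an r of 0.936 (exact p = 0.000868, adjusted p = 0.0146) and a rho of 0.786 (exact p = 0.0279, adjusted p = 0.0914), with 0.852 without the 2 farthest arrays. Usp18 with Oas1a gave an r of 0.933 (exact p = 0.00186, adjusted p = 0.0167) and a rho of 0.833 (exact p = 0.0154, adjusted p = 0.0615), with 0.80 without the 2 farthest arrays.

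Part of a pooled r comes from the group difference, and each group lay on 1 slide of 4 arrays, too few for a value within a slide. The deviations from the group means were therefore compared over the 8 arrays. The median r over the 36 pairs was then 0.399, with 29 pairs above 0, a lowest value of -0.45 and 4 pairs at 0.8 or more. Of all pairs of tested genes, 22.5% were at or above that median and 2.64% reached 0.8. The r with group means removed was 0.958 for Isg15 with Oas1a, 0.886 for Isg15 with Usp18, 0.851 for Usp18 with Oas1a and 0.902 for Stat2 with Psmb8. By contrast it was -0.026 for Isg15 with Stat2 and 0.115 for Isg15 with Psmb8.

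The median r with group means removed was 0.340 without control replicate 3 alone and 0.345 without TCDD replicate 3 alone. It was 0.600 without the arrays at slide position 1. Both replicate 3 arrays were also left out together, a choice made after the values were seen. Leaving out arrays chosen for their large deviations tends to lower r. That median was then -0.084 over 6 arrays, and 17 of 36 pairs were above 0. The r with group means removed was then 0.352 for Isg15 with Usp18 and -0.065 for Usp18 with Oas1a. It was 0.823 for Isg15 with Oas1a and 0.897 for Stat2 with Psmb8. The pooled r, which includes the group difference, was above 0 in 33 of 36 pairs on those 6 arrays. On all 8 arrays Isg15, Usp18, Oas1a, Ifit3 and Irf7 had a median pooled r with their 8 partners of 0.747, 0.738, 0.692, 0.750 and 0.731. Mx1, Irf9, Stat2 and Psmb8 had 0.534, 0.619, 0.561 and 0.560. With group means removed the medians were, in the same order, 0.562, 0.601, 0.455, 0.625 and 0.574, then 0.331, 0.262, 0.16 and 0.305.

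**Figure D4:**
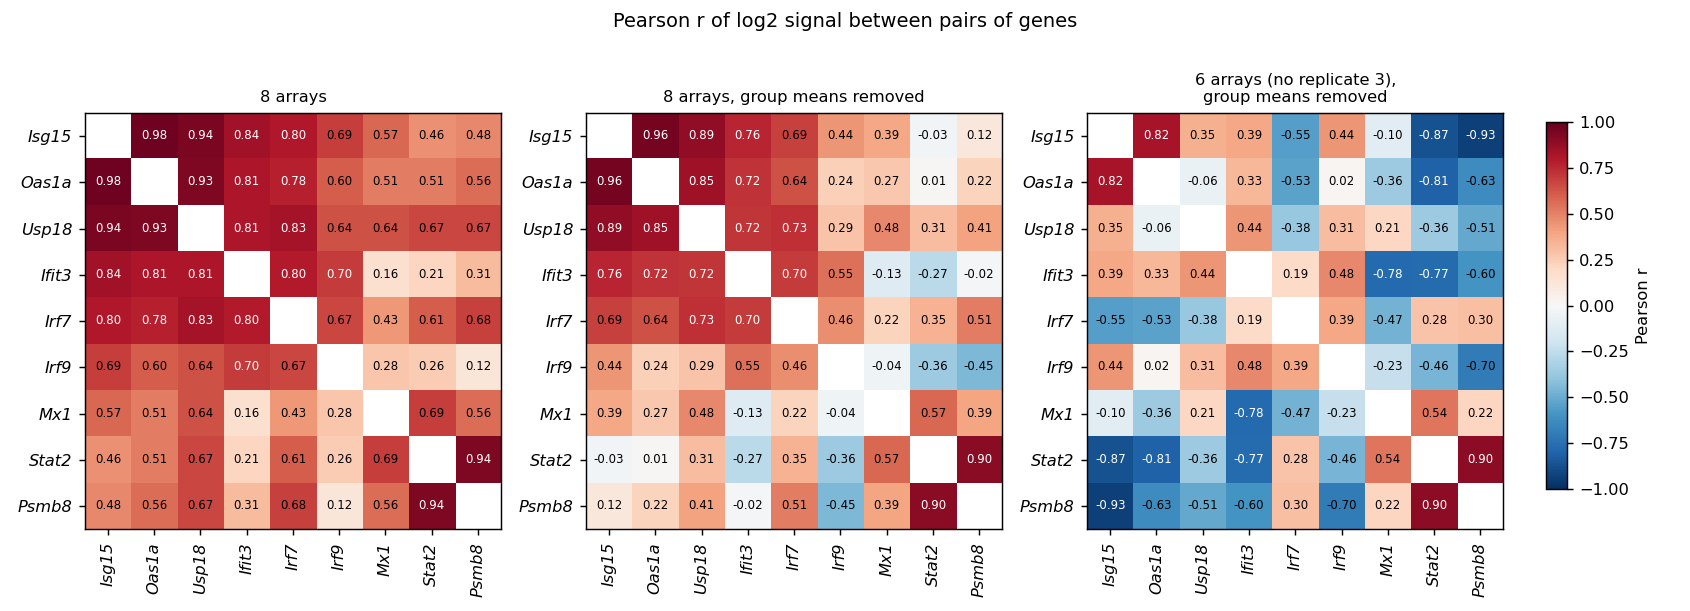
Pearson r (colour and printed value, from -1 in blue to 1 in red) of log2 signal for each pair of the 9 genes over the 8 arrays (left), over the 8 arrays with group means removed (middle) and over the 6 arrays without replicate 3 with group means removed (right). The 36 pairs have a median of 0.651 on the left, 0.399 in the middle and -0.084 on the right, where Isg15 with Oas1a (0.82) and Stat2 with Psmb8 (0.90) remain high.

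Outside the 9, the genes most like them were ranked by the Pearson r of their deviations from the group means with the mean scaled deviation of the 9, over the 8 arrays. The 10 highest were Nek7 (0.95), Spag16 (0.948), Nckap1l (0.940), Qser1 (0.938), Parn (0.925), Mkks (0.921), Lgals9 (0.917), Cog2 (0.913), Ube2q2 (0.904) and Oasl2 (0.904). Lgals9 and Oasl2 were on the interferon lists. Of 16559 genes compared, 0.646% reached an r of 0.8. Of the 91 other interferon pathway genes compared, 4 did (4.4%), among them Lgals9, Oasl2 and Rtp4 (0.884). The ranking was not kept without the replicate 3 arrays. With both left out, chosen after the values were seen, the 10 named genes had an r of -0.36 to 0.73, and Rtp4 had -0.67. Genes picked as the highest on 8 arrays tend to fall on 6, and no other arrays were left out of this ranking for comparison. On those 6 arrays 7.02% of all genes and 8 of the 91 pathway genes (8.79%) reached 0.8. Oasl2, an oligoadenylate synthetase-like gene, read -2.11, -2.29, -2.83 and -2.40 in the controls and -2.55, -2.84, -3.40 and -2.80 in the TCDD dams, lowest at replicate 3 in both groups as Isg15 was. Its log2 fold change was -0.49 (SE 0.21), with a limma adjusted p of 0.446. Mkks was the only one of the 10 with groups that did not overlap, at a difference of -0.26 (SE 0.064) on the log2 scale and a limma adjusted p of 0.200.

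The other genes of the pathway were taken from fixed lists and stood in the same limma fit, in which none passed an adjusted p of 0.05. Of 31 antiviral effectors tested, 21 were lower and 10 higher in TCDD dams, and the median log2 difference was -0.10. That median was -0.02 without TCDD replicate 3, -0.04 without control replicate 4 and -0.18 without TCDD replicate 2. With an unadjusted p under 0.05, 5 of the 31 were lower and 1 was higher, against 2.82% of all genes lower and 7.95% higher. Ifi27, a mitochondrial interferon-induced protein, read 4.13, 4.35, 4.11 and 4.30 in the controls and 3.65, 3.11, 3.34 and 3.98 in the TCDD dams. Its groups did not overlap, and its log2 difference was -0.70 (SE 0.17, limma adjusted p = 0.200). Bst2, which tethers budding virus particles to the cell, did not overlap between groups either, at -0.58 (SE 0.17, limma adjusted p = 0.257). Oas1k, a relative of Oas1a, was at -0.70 (SE 0.27, limma adjusted p = 0.397), and at -0.36 after normexp. Pml, the scaffold of nuclear bodies, was on the other side at 1.13 (SE 0.32, limma adjusted p = 0.236), and at 0.35 after normexp. Pml was dim, at -4.85, -4.93, -5.06 and -5.99 in the controls and -3.71, -4.36, -3.59 and -4.66 in the TCDD dams. Every TCDD dam lay above every control in Pml. Of all tested genes, 1.72% had every TCDD dam below every control and 5.33% had every one above. The mean log2 signal of the antiviral effectors was lowest at replicate 3 in both groups, at -2.27 in the control and -2.42 in the TCDD dam.

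Beside Isg15 and Usp18, the enzymes of ISG15 conjugation gave 3 lower and 2 higher of 5 tested, with a median of -0.01 that ranged from -0.08 without control replicate 1 to 0.12 without control replicate 4. Uba7, the activating enzyme of ISG15, read -3.08, -3.24, -3.23 and -3.02 in the controls and -3.74, -3.32, -3.73 and -3.25 in the TCDD dams. Its groups did not overlap, against 1.72% of all tested genes with every TCDD dam below every control. Its log2 difference was -0.37 (SE 0.13, limma adjusted p = 0.341), and -0.22 after normexp. Ube2l6, the conjugating enzyme that follows it, was at 0.04 (SE 0.10). Beside Psmb8, the 20 other proteasome genes tested gave 12 lower and 8 higher with a median of -0.01, and the other immunoproteasome catalytic subunits Psmb9 and Psmb10 were at -0.11 (SE 0.15) and 0.00204 (SE 0.051).

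Upstream of the members, 13 JAK-STAT and IRF genes gave 5 lower and 8 higher with a median of 0.01. Irf3, the factor activated by nucleic acid sensors, was at -0.15 (SE 0.090, limma adjusted p = 0.646). The 10 nucleic acid sensing genes tested gave 7 lower and 3 higher with a median of -0.05. Of the 5 interferon and receptor genes tested, 2 were lower and 3 higher with a median of 0.07. Ifnar1, a chain of the type I receptor, was at -0.22 (SE 0.099, limma adjusted p = 0.479). Ifna4 was at 0.56 (SE 0.13, limma adjusted p = 0.174), with every TCDD dam above every control, and at 0.04 after normexp. Its signal was dim, with means of -5.73 in controls and -5.17 in TCDD dams. Ifnb1, Ifna1 and Ifng were not well above background in either group, so their direction is not given. No probe was matched to Ifnar2 by name. At an unadjusted p under 0.05, Uba7 was the only gene of the conjugation list and Ifna4 the only gene of the interferon and receptor list, while the JAK-STAT, sensing and proteasome lists had 0. Of all genes, 2.82% were lower and 7.95% higher at that threshold.

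Genes induced mainly by interferon gamma gave 5 lower and 2 higher of 7 tested, with a median of -0.17 that was 0.04 without TCDD replicate 3, 0.08 without control replicate 4 and -0.29 without TCDD replicate 2. Of these, 2 were lower at an unadjusted p under 0.05, against 2.82% of all genes. They were Irgm and Gbp5, both interferon-inducible GTPases, at -0.30 (SE 0.12, limma adjusted p = 0.431) and -0.22 (SE 0.094, limma adjusted p = 0.450). The groups did not overlap in Gbp5 and overlapped in Irgm. Of all tested genes, 1.72% had every TCDD dam below every control. After normexp Irgm was at -0.28 and Gbp5 at -0.115. Cxcl9, Cxcl10 and Cxcl11, the chemokines of that response, were not well above background.

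**Figure D5:**
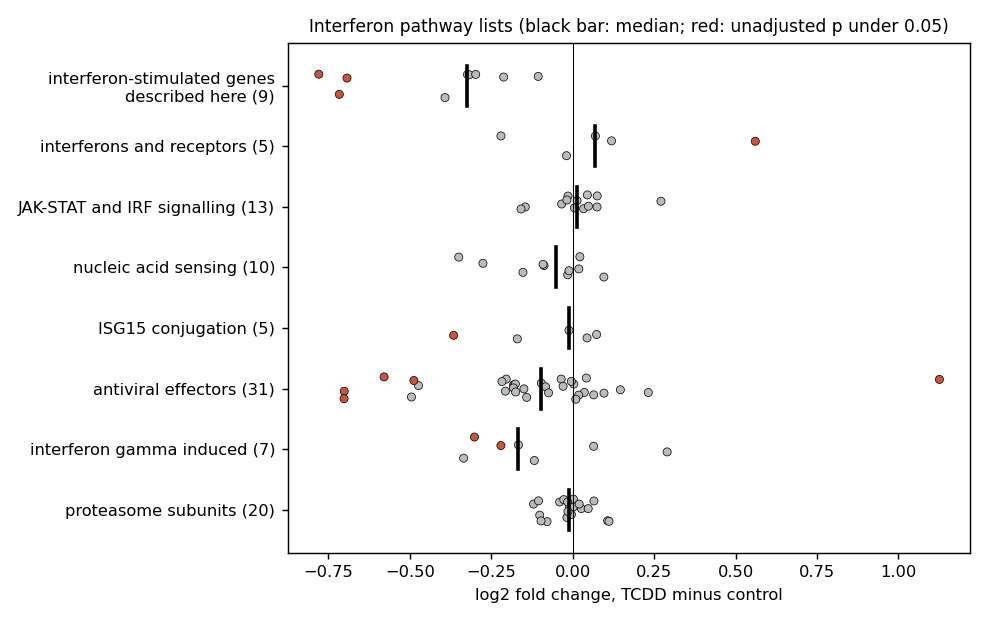
Log2 fold change, TCDD minus control (horizontal axis), of each tested gene (points) of the 9 interferon-stimulated genes and of 7 other pathway lists, with the number tested in parentheses, the median as a black bar and genes at an unadjusted p under 0.05 in red. The 9 genes have a median of -0.32, and the other lists have medians from -0.17 to 0.07.

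Markers of the cell types that could carry these transcripts were measured beside them, and 0 passed an adjusted p of 0.05 in limma. At an unadjusted p under 0.05, 2.82% of all genes were lower and 7.95% higher, which the counts below stand against. All 14 microglial markers were tested, with 9 lower, 5 higher (1 of them at an unadjusted p under 0.05) and a median of -0.03. Their summed signal, in multiples of the array's 75th percentile, was 34.1 to 37.9 in controls and 31.1 to 36.8 in TCDD dams. Of 10 endothelial markers 1 was lower and 9 higher (median 0.07, summed signal 12.1 to 13.5 and 12.6 to 14.6). The endothelial, astrocyte, leukocyte and fibroblast lists had 0 at an unadjusted p under 0.05. The 8 astrocyte markers had a median of 0.03, with a summed signal of 85.3 to 101.7 in controls and 91.4 to 97 in TCDD dams. Of 18 leukocyte markers other than microglial, 8 were tested, with a median of 0.09 and a summed signal of 0.594 to 0.786 and 0.628 to 0.898. Among them the T cell marker Cd3d and the cytotoxic cell marker Nkg7 were tested, at log2 fold changes of 0.20 (SE 0.12) and -0.51 (SE 0.55), while Cd3e, Cd8a, Cd4 and Ms4a1 were not well above background in either group. Red blood cell markers were higher in 5 of 5 tested, 4 of them at an unadjusted p under 0.05, with a median of 0.90 and a summed signal of 108.8 to 290.4 in controls and 187 to 342.2 in TCDD dams. Meningeal fibroblast markers were lower in 8 of 8, with a median of -0.33 and a summed signal of 3.32 to 8.49 in controls and 2.60 to 17.9 in TCDD dams. The 17.9 was TCDD replicate 2 alone, and the other 3 TCDD dams were at 2.60 to 2.92. Among controls, replicate 1 was at 3.32 and the other 3 at 7.70 to 8.49, and in the red blood cell list control replicate 4 was at 290.4 and the other 3 at 108.8 to 133.5. The part of red blood cells and meninges in the values of the 9 genes was not tested.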

How the data were processed

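Hypothalamic total RNA of 8 dams was labelled with Cy3 and hybridised to 1 array each, per the labels' protocols. The scanner files deposited by the authors give the linear intensity of each spot, from Agilent Feature Extraction 10.7.1.1 as their headers state. Its processed signal has background subtracted and spatial trends removed within the array, per the file headers. A table of linear intensities deposited with them, whose 8 columns share a median of 65.1 and whose scaling and centring are unknown here, served as an alternative.

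The 1377 control spots and the spots marked as outliers were left out, and spots of the same probe were averaged (30367 probes). Values are log2 of the processed signal minus the array's 75th percentile. Probes well above background on all 4 arrays of either group were tested, and the brightest such probe stood for its gene. Groups were compared with limma 3.58.1 in R 4.3.3 (lmFit, eBayes, 2-sided, no covariate), with Benjamini-Hochberg adjustment over 16571 genes. The labels give the arrays as separate dams; their number limits the precision. The test was checked on simulated data. Figures were drawn with matplotlib 3.10.9 in Python 3.11.15.

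The 9 genes, the pathway and marker lists and the rules were chosen with earlier results of these data known. The text names all 9 genes, fixed pathway genes (1 is not reported here), up to 3 genes of each pathway list in each direction at an unadjusted p under 0.05, and the 10 genes most like the 9. Rtp4, the dim interferons and chemokines and the markers singled out were chosen after their values were seen. Alternatives concerned background correction, scaling, the authors' table, the filter, several probes of a gene, the variance model, the replicate number as a block, slide position 1 and each array left out.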

Additional observations from a re-analysis of the deposited data

Results flagged for a closer look

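The log2 signal of Psmb8 in control replicate 4 (-2.59) stood apart from the other controls (-2.94, -2.92 and -2.96). Its gap to the nearest of them was 0.87 of the whole range of the 4 controls, above Dixon's 95% critical value for 4 samples. Each of the 9 genes was checked in both groups, and chance alone marks about 1 in 20 such sets. Without control replicate 4 the log2 fold change of Psmb8 was -0.21, against -0.30 with it.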

How the results depend on the processing

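None of the 9 genes passed an adjusted p of 0.05 in any alternative, and each kept a lower mean in TCDD dams in all of them; their median log2 fold change was -0.45 to -0.25 with each array left out. The adjusted p ranged from 0.112 to 0.686 for Isg15, 0.112 to 0.555 for Usp18 and 0.112 to 0.809 for Oas1a. Of all genes, 4 passed the adjusted threshold. That count was 20 with normexp, 27 with median scaling, 34 with trended and robust variance, 0 without the filter on dim probes, 2 without the position 1 arrays and 0 to 8 with each array left out. Alternatives chosen after seeing the data gave 3 with the 75th percentile taken over probes and 0 with replicate 3 of both groups left out. The median r of the 36 pairs (0.651) was 0.534 to 0.710 with each array left out. With group means removed (0.399) it was 0.502 with median scaling, 0.600 without the position 1 arrays, 0.340 to 0.570 with each array left out and -0.084 with replicate 3 of both groups left out. Normexp gave -0.39 for Usp18, -0.33 for Oas1a, -0.14 for Ifit3, -0.11 for Irf9 and -0.21 for Mx1, each moved by over 1.5 times.

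Deviations of same-numbered arrays correlated at 0.229, 0.030, -0.093 and 0.101, and those of differently numbered arrays at -0.352 to 0.336. These values over all probes do not settle whether the replicate numbers pair the dams. The replicate number was also the slide position in both groups. With the replicate number as a block, 0 genes passed the adjusted threshold (2137 at an unadjusted p under 0.05), the lowest adjusted p among the 9 genes was 0.112, and the median r of the pairs was 0.720, or -0.076 with group means also removed. With the block, the limma unadjusted p was 0.000656 for Isg15, 0.000615 for Usp18 and 0.000539 for Oas1a, against 0.0287, 0.012 and 0.0151 without it. That of Stat2 rose from 0.0918 to 0.124. By construction the block removes what same-numbered arrays share.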
